A study of Mus musculus with 26 samples.

Results

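Naive mouse ES cells were compared with epiblast-derived stem cells, EpiSC, by the places in the genome where chromatin was called open. The comparison covered 18347 regions, of which 607 had a peak in all 3 ES lists and in no EpiSC(AF) list, and 1026 had a peak in all 3 EpiSC(AF) lists and in no ES list. These are called ES-only and EpiSC(AF)-only regions here, and both names refer to lists of equal length, not to a complete lack of signal on the other side. The ES cells were at passage 16 in 2iL, and the EpiSC(AF) cells were at passage 22 in AF. By usual usage 2iL stands for inhibitors of MEK and GSK3 with the cytokine LIF, and AF for activin with FGF2, but the labels do not spell either name out. The labels give no strain, sex or genetic change for either group. Cell type, medium and passage change together between them, so their parts in any difference cannot be told apart.

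ATAC-seq marks open chromatin through the Tn5 transposase, which cuts accessible DNA and leaves sequencing adapters there. Each library started from 50000 cells. The series held 26 libraries, with 1 deposited peak list for each, of which 3 ES and 3 EpiSC(AF) lists define the regions described here. Replicates carry numbers, but nothing says that they came from separate cultures, so the spread between them may be technical.

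Naive ES cells resemble the epiblast before implantation, and EpiSC resemble the epiblast after implantation, a state called primed. In the naive state LIF acts through STAT3, and a set of transcription factors that includes Esrrb, Klf4, Tfcp2l1 and Tbx3 sustains self-renewal. In the primed state Nodal or activin acts through SMAD2 and SMAD3, FGF acts through ERK, and de novo DNA methyltransferases are active. Both states express Pou5f1 and Sox2, and open chromatin near genes of the pluripotency network is known to be partly remodelled between them.

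The promoters that carry the comparison for known pluripotency genes are shown first. Of the genes in the lists described further on, 8 had a promoter window overlapping a separated region, and 6 of these are printed because they mark the naive side (Zfp42), the core network (Pou5f1), the methylation enzymes (Dnmt3a, Dnmt3b), the epithelial surface (Epcam) and the Wnt response (Tcf7l2). Each is the 250 bases upstream of a RefSeq start, 5′ to 3′ along the gene, from the GRCm38.p6 table. Capitals mark matches, on either strand, to 13 searched motifs. Those found here were the octamer ATGCAAAT of POU factors, the CCAAT box CCAAT, the GC box GGGGCGGGG of SP factors and the ZIC motif CAGCAGG.
Zfp42 (chr8:43307010-43307259, minus strand, ES-only): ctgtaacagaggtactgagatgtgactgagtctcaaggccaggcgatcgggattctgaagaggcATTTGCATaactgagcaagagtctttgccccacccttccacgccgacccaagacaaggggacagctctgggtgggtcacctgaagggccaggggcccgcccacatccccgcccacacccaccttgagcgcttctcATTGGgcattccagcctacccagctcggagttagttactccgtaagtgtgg
Pou5f1 (chr17:35505782-35506031, plus strand, EpiSC(AF)-only): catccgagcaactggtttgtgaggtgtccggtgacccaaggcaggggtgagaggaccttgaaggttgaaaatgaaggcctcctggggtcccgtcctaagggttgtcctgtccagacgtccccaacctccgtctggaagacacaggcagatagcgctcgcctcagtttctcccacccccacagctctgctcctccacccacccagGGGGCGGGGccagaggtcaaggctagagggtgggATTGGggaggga
Dnmt3a (chr12:3891494-3891743, plus strand, EpiSC(AF)-only): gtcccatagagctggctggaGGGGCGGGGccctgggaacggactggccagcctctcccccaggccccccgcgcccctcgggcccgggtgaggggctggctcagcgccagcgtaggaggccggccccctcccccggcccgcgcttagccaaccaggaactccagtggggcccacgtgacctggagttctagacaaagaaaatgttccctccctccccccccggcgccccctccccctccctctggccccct
Dnmt3b (chr2:153649199-153649448, plus strand, EpiSC(AF)-only): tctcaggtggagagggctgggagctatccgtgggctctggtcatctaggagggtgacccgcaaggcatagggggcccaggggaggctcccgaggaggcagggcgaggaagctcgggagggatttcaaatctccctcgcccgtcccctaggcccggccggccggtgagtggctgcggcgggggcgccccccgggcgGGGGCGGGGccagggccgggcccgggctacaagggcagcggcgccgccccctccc
Epcam (chr17:87635729-87635978, plus strand, EpiSC(AF)-only): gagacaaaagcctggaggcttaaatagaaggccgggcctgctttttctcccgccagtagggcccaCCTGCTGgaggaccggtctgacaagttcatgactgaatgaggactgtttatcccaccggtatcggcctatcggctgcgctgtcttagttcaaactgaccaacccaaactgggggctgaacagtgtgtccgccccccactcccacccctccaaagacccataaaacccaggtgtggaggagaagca
Tcf7l2 (chr19:55741560-55741809, plus strand, EpiSC(AF)-only): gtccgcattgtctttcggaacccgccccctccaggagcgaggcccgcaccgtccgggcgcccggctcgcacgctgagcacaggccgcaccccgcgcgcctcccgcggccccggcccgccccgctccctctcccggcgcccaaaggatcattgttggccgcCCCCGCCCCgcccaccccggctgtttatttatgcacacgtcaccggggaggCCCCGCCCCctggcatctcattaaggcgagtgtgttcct

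The Zfp42 window held an octamer on the reverse strand, starting at base -186 from the gene start, and a CCAAT box at -51. The GC box stood at -46 in Pou5f1, at -55 in Dnmt3b and at -230 in Dnmt3a, and Tcf7l2 held it at -90 and at -39. These windows were rich in G and C, from 56.4% in Epcam to 75.2% in Dnmt3b, with 58.4% in Zfp42. A match is a description of the letters and does not show a bound factor.

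Over promoters as a class, windows ran from 250 bases before a start to 50 bases after it, 21263 in all for protein-coding genes. An ES-only region overlapped 133 of them (0.625%), and an EpiSC(AF)-only region overlapped 467 (2.2%). The octamer was in 3.01% of the ES-only windows, 1.28% of the EpiSC(AF)-only windows and 1.58% of all windows, which in the ES-only windows amounted to 4 promoters. The GC box was in 16.5% of the ES-only windows, 32.3% of the EpiSC(AF)-only windows, 30.0% of the windows open in all 6 lists and 13.9% of all windows. The CCAAT box was in 36.1%, 39.4%, 60.3% and 35.4% of the same 4 classes. Median GC content was 62.4%, 63.2%, 64.4% and 55.6%, so by median both separated classes lay above promoters at large and close to those open in every list. The lower quartile was 53.6%, 58%, 59.2% and 47.2%, so there the ES-only class lay further from those open in every list. The other motifs, with their share of all windows, were TCAAGGTCA of Esrrb-type receptors (0.320%), GGGCGTGG of KLF factors (6.33%), CCGGAAGT of ETS factors (3.79%), the NRF1 motif (1.07%), AATCCACA of FOXH1 (0.663%), TGACGTCA or CRE (1.92%), the TATA box TATAAA (11.6%), CTTTGAT of LEF and TCF (2.82%), TGACTCA of AP-1 (4.06%) and the ZIC motif (8.37%). No searched motif contains another. Among these, the KLF motif was in 13.5% of the ES-only and 13.9% of the EpiSC(AF)-only windows, the ETS motif in 6.77% and 3.00%, and the Esrrb-type motif in 0% and 0.214%.

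To set the sides on the same footing, each list was limited to its 8044 top peaks by −log10 p, the number in the shortest ES list. The full lists held 10961, 8044 and 9705 peaks for ES and 15505, 21549 and 24824 for EpiSC(AF), without overlap between the groups. The peaks used made up 73.4%, 100% and 82.9% of the ES lists but 51.9%, 37.3% and 32.4% of the EpiSC(AF) lists. At that limit −log10 q was 1.01 to 1.52 in ES and 3.77 to 4.56 in EpiSC(AF), and the median fold enrichment, the authors' own ratio for a peak, was 3.98 to 4.12 against 5.60 to 6.23. The ES lists were thus shorter, weaker and closer to the calling limit, and these differences run along with the cell types in every comparison of the regions. Their part in the results was not tested beyond the alternatives in list length.

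Overlapping peaks of the 6 lists were merged into union regions, and a list held a region when a peak shared at least 1 base with it. Of the 18347 regions, 3.31% were ES-only, 5.59% were EpiSC(AF)-only and 2522 (13.7%) were in all 6 lists. Just outside the rule, 179 regions were in 3 ES lists and 1 EpiSC(AF) list, and 1303 were in 2 ES lists and no EpiSC(AF) list. On the other side, 806 regions were in 3 EpiSC(AF) lists and 1 ES list, and 1031 were in 2 EpiSC(AF) lists and no ES list. Regions in a single ES list numbered 5262, against 2450 in a single EpiSC(AF) list. Pairs of ES lists shared 4567 to 4662 regions, and pairs of EpiSC(AF) lists shared 6066 to 6108. The Jaccard index by length, the bases covered in both lists over the bases covered in either, was 0.306 ± 0.0110 (SD, 3 pairs) among ES, 0.532 ± 0.00414 (3 pairs) among EpiSC(AF) and 0.272 ± 0.0121 (9 pairs) between the groups. The lowest pair among ES, 0.297, lay just above the highest between the groups, 0.291. The counts moved with the list length. As deposited, 310 regions were ES-only and 4540 EpiSC(AF)-only, and with a −log10 q of at least 5 the counts were 17 and 3187. With 3 libraries against 3, no exact test can go below p = 0.1, so the separated regions are a description.

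**Figure D1:**
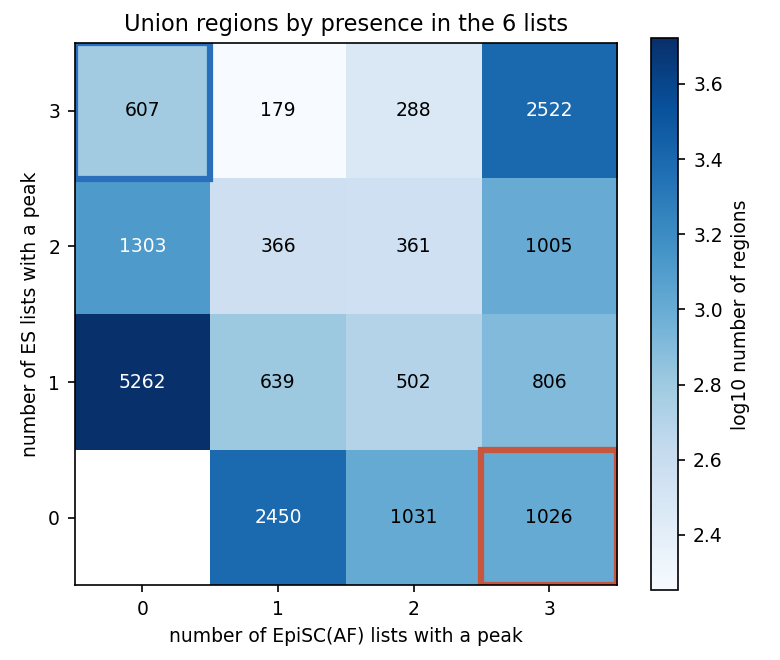
Number of union regions by how many ES lists (vertical axis) and EpiSC(AF) lists (horizontal axis) held a peak, each list limited to 8044 peaks, with colour on a log10 scale. The outlined cells are the 607 ES-only and the 1026 EpiSC(AF)-only regions, and the cell for a single ES list is the fullest with 5262.

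The share of regions at gene ends was lower on the ES side. A region within 1 kb of either end of a protein-coding gene accounted for 129 of 607 ES-only regions (21.3%, 95% Wilson interval 18.2 to 24.7) and 504 of 1026 EpiSC(AF)-only regions (49.1%, 46.1 to 52.2). The same share was 72.1% for regions in all 6 lists and 43.4% for all union regions. With alternative RefSeq starts counted as well, 18.3% of the ES-only and 43.7% of the EpiSC(AF)-only regions were within 1 kb of a start. Regions outside genes and over 50 kb from any gene end made up 24.2% (20.98 to 27.8) of the ES-only set, 5.85% (4.57 to 7.46) of the EpiSC(AF)-only set and 14.4% of the union. The intervals cover counting error only, and neighbouring regions are not independent. Median distance to a gene end was 20.6 kb for ES-only and 1.09 kb for EpiSC(AF)-only regions, and median width was 549 and 386 bp. The lists as such differed the same way. Of the 8044 peaks in each, 48.8% to 50.2% of the ES peaks and 62.2% to 62.3% of the EpiSC(AF) peaks were within 1 kb of a gene end. At full list length the gene-end share was 5.16% for ES-only and 44.4% for EpiSC(AF)-only regions.

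**Figure D2:**
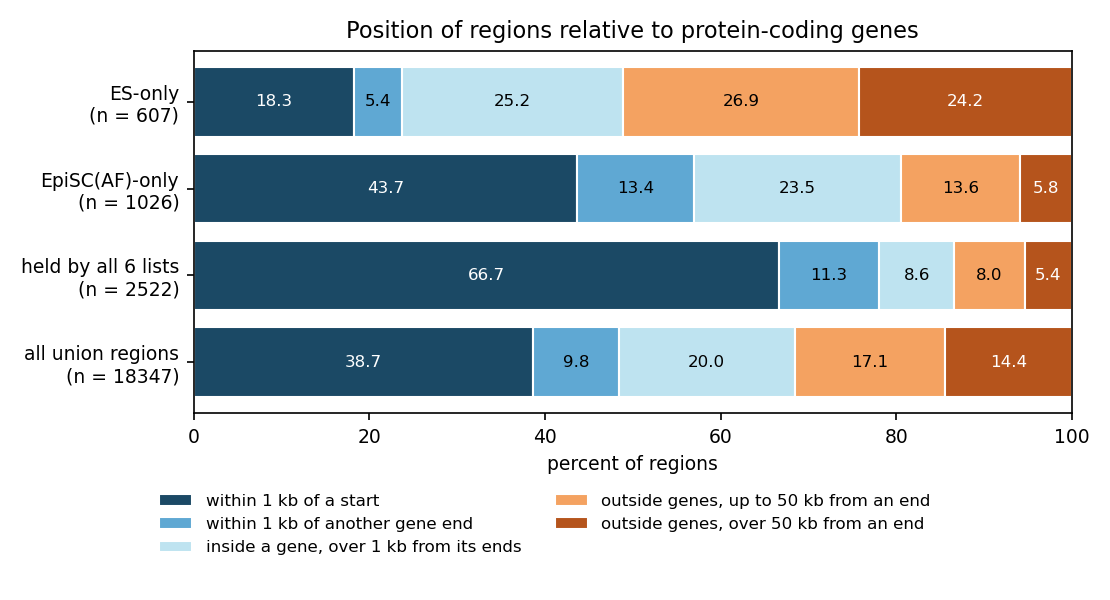
Percent of regions in each position class relative to protein-coding genes, for the separated regions, those held by all 6 lists and all union regions. Starts make up 18.3% of the ES-only bar and 43.7% of the EpiSC(AF)-only bar. Places outside genes and over 50 kb from a gene end make up 24.2% and 5.85%.

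Absence from the other side meant something different for the 2 sets. In the full-length EpiSC(AF) lists, 208 of the 607 ES-only regions (34.3%) had no peak, 109 had a peak in 1 list, 121 in 2 and 169 in all 3. In the full-length ES lists, 906 of the 1026 EpiSC(AF)-only regions (88.3%) had no peak, 115 had one in 1 list and 5 in 2 lists. ES list 2 was used whole, so no EpiSC(AF)-only region could have a further peak there. ES lists 1 and 3 were used to 73.4% and 82.9%, so the lack of a full-length ES peak adds little to the rule. The share at gene ends was higher for the ES-only regions with a lower-ranked EpiSC(AF) peak. Lower-ranked means below the 8044 peaks used in its own list, not weaker than the ES peak. The limit of 8044 peaks lay at a −log10 p of 6.86 to 7.62 in EpiSC(AF) and 3.98 to 4.68 in ES. Of the 208 without any full-length EpiSC(AF) peak, 6.73% were within 1 kb of a gene end and 42.3% were over 50 kb away. The shares were 28.8% and 26.3% for the 399 others. Regions inside genes count toward the shares over 50 kb here, unlike in the 24.2% given above for regions outside genes.

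The strongest regions of each side are given by their percentile within a full list, where 100 is the highest −log10 p. The highest mean among the ES-only regions was at chr2:97327167-97327604, inside Lrrc4c, which encodes a synaptic adhesion protein. It stood at 97.2, 96.4 and 93.9 in the ES lists, with authors' fold enrichments of 7.14, 6.96 and 5.81. No full-length EpiSC(AF) list and none of the 12 other first-set libraries at equal length held it. The second, chr7:26779872-26780103, lay 7.24 kb from Cyp2b19, a cytochrome P450 gene, at 96.8, 95.1 and 93.6. Here 2 full-length EpiSC(AF) lists held a lower-ranked peak, and 3 of 6 EpiSC_AFX and 4 of 6 FS libraries held a peak at equal length. The others were chr8:19698442-19699289, 5.02 kb from 4930467E23Rik, chr4:146067051-146067864, 29.4 kb from the zinc finger gene Zfp987, chr13:65990982-65991526, 32.1 kb from Gm46425, and chr3:48172532-48172866. The last was 1570 kb from Pcdh18, a protocadherin gene. Of these 6 regions, 2 had no peak in any full-length EpiSC(AF) list, those at Lrrc4c and Gm46425, and the next such regions were in 2410141K09Rik (chr13:66440981-66441369) and in Rgl1 (chr1:152763224-152763440), a regulator of Ral GTPases.

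The EpiSC(AF)-only regions reached higher. The first, chr15:100908832-100909224, lay inside Scn8a, which encodes a voltage-gated sodium channel, at 99.6, 99.7 and 99.8 in the EpiSC(AF) lists, with authors' fold enrichments of 12.3, 11.9 and 13.2. The second, chr10:81416488-81417022, lay inside Nfic, a nuclear factor I gene, at 99.5, 99.5 and 99.6. Next came chr12:109423502-109423953, 28.5 kb from the imprinted gene Dlk1, chr1:192794959-192795418, 23.7 kb from Hhat, which palmitoylates Hedgehog proteins, chr2:152612120-152612522 at the beta-defensin gene Defb36, and chr13:57732315-57732665 inside the proteoglycan gene Spock1. All 6 were in all 6 EpiSC_AFX libraries at equal length and in 4 to 6 of the 6 FS libraries, none of which were used to choose them. Only the Dlk1 region had a peak in any full-length ES list, and in 1 of the 3. Of all EpiSC(AF)-only regions, 88.3% had no such peak.

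The limit of 8044 peaks sets the lowest percentile that a list can contribute. ES-only regions had median percentiles of 60.3, 49.7 and 59.7 in the ES lists, starting at 26.7, 0.162 and 17.2. EpiSC(AF)-only regions had medians of 71.9, 80.0 and 83.3 in their own lists, starting at 48.2, 62.7 and 67.7. Where ES-only regions did have a peak in a full-length EpiSC(AF) list, its median percentile was 25.6, 33.5 and 41.6. By the rule such peaks lie below the limit, and the highest stood at 48.1, 62.6 and 67.5. These medians are shaped by the limits, so they do not compare the strength of the 2 sets.

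Genes near the regions were counted next, a gene being near when a region fell in its span or within 20 kb. Of 21900 protein-coding genes, 537 (2.45%) were near an ES-only region, 1707 (7.79%) were near an EpiSC(AF)-only region and 30 (0.137%) were near both. The lists of pathway and cell type genes are read against those 2 shares. The EpiSC(AF) lists also had more peaks near genes in general, with 90.3% to 91.0% of peaks within 20 kb of a gene against 79.2% to 81.3% in ES. Proximity does not show that a region acts on the gene.

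Among 17 naive pluripotency genes, 4 were near an ES-only region (23.5%, against 2.45% of all genes) and none were near an EpiSC(AF)-only region. They were Zfp42, which encodes the naive marker REX1, the transcription factor genes Tfcp2l1 and Tbx3, and Fbxo15, an ES cell F-box gene. Zfp42 had 2 ES-only regions. The promoter region, chr8:43306959-43307410, stood at percentiles 41.4, 88.2 and 86.6 in the ES lists, so list 1 was low. A lower-ranked peak was in 1 full-length EpiSC(AF) list. The second region, chr8:43320729-43321235, lay 13.7 kb outside the gene at 70.95, 72.2 and 53.5, and no full-length EpiSC(AF) list held it. Neither was in any of the 12 FS and EpiSC_AFX libraries at equal length. The Tfcp2l1 region, chr1:118648035-118648327, was inside the gene at 75.3, 90.5 and 91.5. All 3 full-length EpiSC(AF) lists had a lower-ranked peak there, as they did at Tbx3 (chr5:119670549-119671026, at 74.3, 80.6 and 43.5). Fbxo15 stood at 53.7, 70.97 and 45.6 in its region at the gene end, with a peak in 1 full-length EpiSC(AF) list.

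Peaks near the 17 naive genes numbered 13, 12 and 11 in the ES lists and 4, 4 and 8 in the EpiSC(AF) lists at equal length, without overlap. In the full-length lists the order turned, with 18, 12 and 12 against 18, 23 and 24. Nanog, the homeodomain factor of naive identity, had 1, 1 and 2 peaks in ES and 0, 0 and 1 in EpiSC(AF). Esrrb, an orphan nuclear receptor, had 1, 1 and 0 against 0 in each EpiSC(AF) list, so it missed the rule through ES list 3, and all 6 full-length lists had a peak near it. Klf2 and Klf5, Kruppel-like factors, had 1 peak in every one of the 6 lists. Nr5a2, Dppa3, Tcl1 and Nr0b1 had none in any of the 6 at equal length. At full length Nr5a2 had a peak in 1 ES and 3 EpiSC(AF) lists.

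Among 13 genes of the formative state, which lies between naive and primed, 4 were near an EpiSC(AF)-only region (30.8%, against 7.79% of all genes) and none were near an ES-only region. Dnmt3a and Dnmt3b encode the de novo DNA methyltransferases. The Dnmt3a region, chr12:3891409-3891836, covered a RefSeq start inside the gene, 22.6 kb from the nearer outer end, at percentiles 94.2, 97.1 and 96.9 in the EpiSC(AF) lists. The Dnmt3b region, chr2:153649208-153649570, covered the gene start at 68.3, 79.6 and 87.5. Neither was in a full-length ES list, like 88.3% of all EpiSC(AF)-only regions. Both were in all 6 EpiSC_AFX libraries, like 39.1% of that set. Tcf15, an epiblast basic helix-loop-helix factor gene, stood at 87.0, 87.3 and 92.5 (chr2:152143337-152143718). The region counted for Zic2, a zinc finger factor gene, was 10.4 kb outside it and within the span of Pcca, at 56.6, 65.5 and 79.2. Peaks near the 13 genes numbered 6, 2 and 3 in ES and 18, 16 and 15 in EpiSC(AF). Fgf5, the classic epiblast marker, had no ES peak and 2, 3 and 1 EpiSC(AF) peaks, but no single region of it was in all 3 lists. Otx2, which directs enhancer use after naive exit, had none in ES and 0, 1 and 1 in EpiSC(AF).

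The Nodal and activin pathway had 6 of 18 genes near an EpiSC(AF)-only region (against 7.79% of all genes) and none near an ES-only region. Nodal is the ligand, Tdgf1 its co-receptor Cripto, Lefty2 an inhibitor, Foxh1 a DNA-binding partner of SMAD2 and Tgif1 a corepressor. The Nodal region, chr10:61406039-61406373, lay 11.6 kb outside the gene at 55.7, 70.5 and 77.7. The Tdgf1 region, chr9:110947227-110948281, lay 1.07 kb away at 69.9, 76.0 and 86.9. The Tgif1 region covered a start, at 65.2, 73.4 and 82.9. The Foxh1 region was 10.7 kb outside that gene and nearer to Kifc2, and the Lefty2 region was 3.95 kb outside it and nearer to another gene. Peaks near the 18 genes numbered 12, 15 and 9 in ES and 22, 23 and 26 in EpiSC(AF). The regions of these 5 genes were without a peak in the full-length ES lists, like 88.3% of all EpiSC(AF)-only regions.

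Of 15 primed and early lineage genes, 2 were near an EpiSC(AF)-only region (13.3%, against 7.79% of all genes). Among them was Fgf8, a secreted FGF of the gastrulating embryo. The Fgf8 region, chr19:45742947-45743263, lay 0.006 kb from the gene end at 78.5, 73.3 and 86.3, and was in 2 of 6 EpiSC_AFX and no FS libraries. It was also the single region for 18 FGF and ERK genes (5.56%, under the 7.79% of all genes). Peaks near those 18 genes nevertheless numbered 7, 5 and 4 in ES and 15, 17 and 16 in EpiSC(AF). The mesendoderm factor genes T and Foxa2 had no ES peak and 1 peak in a single EpiSC(AF) list each. Gsc and Evx1, of the same primed list, went the other way at equal length, with 1 peak in a single ES list each and none in EpiSC(AF). This did not hold at full length, where Gsc had a peak in 1 ES and 3 EpiSC(AF) lists and Evx1 in 1 and 2. Mixl1, Cer1, Mesp1 and Cdh2 had none in any of the 6 lists at equal length. In the full-length EpiSC(AF) lists, Cer1 and Mesp1 each had a peak in 2 and Cdh2 in 3.

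Of 10 core pluripotency genes, 3 were near an EpiSC(AF)-only region (30%, against 7.79% of all genes) and none were near an ES-only region. The 3 were Pou5f1, Utf1 and Tdgf1. Pou5f1 encodes OCT4, and its region, chr17:35504835-35506051, ended just past the start. It stood at 57.3, 76.8 and 73.1 in the EpiSC(AF) lists, and 1 full-length ES list also held it. The ES lists had 1, 2 and 2 peaks elsewhere within the Pou5f1 span or 20 kb of it, against 2, 2 and 3 in EpiSC(AF), so the gene was near open regions on both sides. Utf1, a chromatin-associated OCT4 and SOX2 target, stood at 78.7, 82.4 and 91.1 (chr7:139943662-139944467) and had no ES peak. Sox2 had 1, 1 and 0 peaks in ES and 1 in each EpiSC(AF) list.

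**Figure D3:**
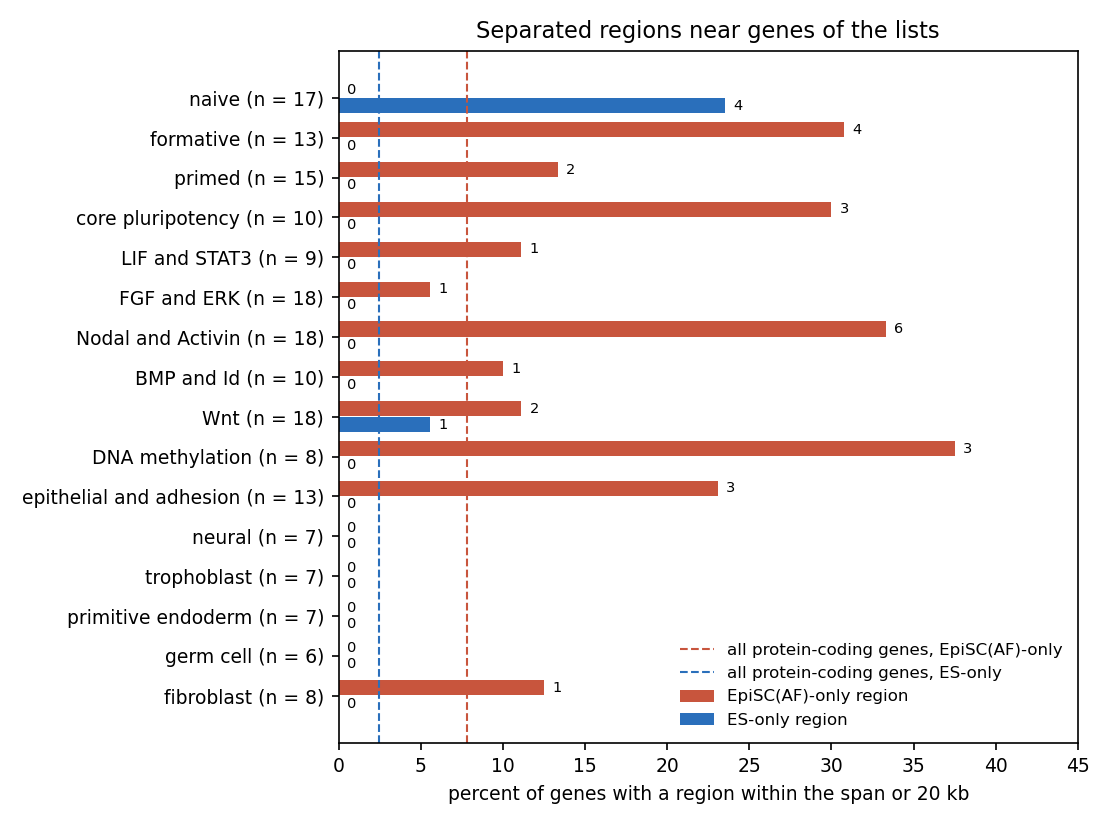
Percent of the genes of each list with an ES-only or an EpiSC(AF)-only region in the span or within 20 kb, with counts at the bar ends and dashed lines for all protein-coding genes (2.45% and 7.79%). The naive list has 4 genes on the ES side and 0 on the other, and the Nodal and activin list has 0 and 6.

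The 8 DNA methylation genes included 3 near an EpiSC(AF)-only region (37.5%, against 7.79% of all genes). These were Dnmt3a, Dnmt3b and Tet3, a 5-methylcytosine dioxygenase, whose region was 12.8 kb outside it and at Bola3. Of 18 Wnt genes, 1 was near an ES-only region (5.56%, against 2.45% of all genes). This was Cdx1, a caudal homeobox target of Wnt, with its region at 84.5, 74.8 and 38.7. Tcf7l2, a nuclear effector, and Nkd1, a feedback inhibitor, were near EpiSC(AF)-only regions (11.1%). The Tcf7l2 region, chr19:55741377-55741902, stood at 82.6, 92.1 and 89.9. Socs3, a feedback inhibitor of STAT3 signalling, was the single gene of 9 in the LIF list (11.1%). Its EpiSC(AF)-only region lay 2.31 kb away at 90.0, 93.8 and 90.7. Id3, a BMP target, had 2 EpiSC(AF)-only regions and was the single gene of 10 in its list (10%). The Wnt, LIF and BMP shares were near the 7.79% of all genes, so they set none of these lists apart.

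Of 13 epithelial and adhesion genes, Epcam, Cldn7 and Krt8 were near an EpiSC(AF)-only region (23.1%, against 7.79% of all genes). The Epcam region, chr17:87635694-87636775, covered the start of this cell surface adhesion gene at 76.4, 84.0 and 82.4. The region counted for the tight junction gene Cldn7 lay at Slc2a4, and that for the keratin gene Krt8 lay in Krt78. Tjp1 went the other way at equal length, with 1 peak in each ES list and 0 in each EpiSC(AF) list, though no ES-only region. All 3 full-length EpiSC(AF) lists had a peak near it. Cdh1 had 1 peak in each ES list and 1, 1 and 0 in EpiSC(AF). Peaks near the 13 genes numbered 4, 8 and 4 in ES and 11, 10 and 7 in EpiSC(AF), with overlap. The neural, trophoblast, primitive endoderm and germ cell lists, with 7, 7, 7 and 6 genes, had 0 genes near a separated region of either kind. Of 8 fibroblast genes, which could mark feeder or differentiated cells, 1 had one (12.5%), Col1a1, 7.07 kb away on the EpiSC(AF) side. That share is near the 7.79% of all genes. At equal length, peaks near the fibroblast genes numbered 2 in each ES list and 2, 3 and 3 in EpiSC(AF). Col1a2, Twist1, Prrx1 and Postn had none there. In the full-length lists the numbers were 3, 2 and 4 in ES and 9, 10 and 13 in EpiSC(AF). Twist1 then had a peak in 3 EpiSC(AF) lists, and Col1a2 and Prrx1 in 1 each.

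**Figure D4:**
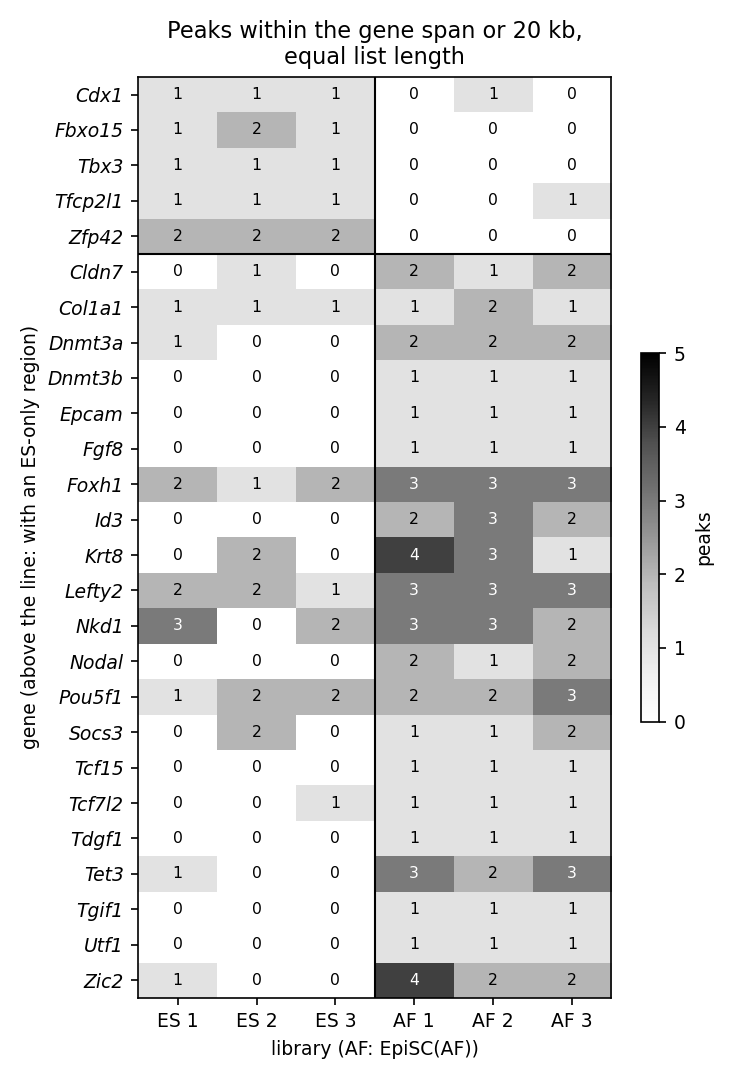
Number of peaks in the span or within 20 kb of list genes near a separated region, in each ES and EpiSC(AF) library at equal list length. Zfp42 has 2 peaks in each ES library and 0 in each EpiSC(AF) library, and 9 genes with an EpiSC(AF)-only region have 0 in all 3 ES libraries.

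Outside the lists, several of the windows with the most ES-only regions held repeated gene copies. The 1 Mb window with the most was on chromosome 8 from 20 Mb, with 12 ES-only of 54 union regions, near Defb33 and uncharacterised gene models. Chromosome 13 had 11 of 41 from 66 Mb, around the zinc finger gene Zfp640, and 8 of 31 from 65 Mb. Chromosome 12 had 7 of 13 from 19 Mb, and chromosome 4 had 6 from 147 Mb among zinc finger genes that include Rex2, Zfp978 and Zfp979. By gene, Zfp978, Zfp993, Sfi1, which encodes a centrin-binding protein, and the Duxf3 cluster led with 3 ES-only regions each. Duxf3 belongs to the Dux homeobox family that is active at zygotic genome activation. Its 3 regions were shared with Gm4981 and LOC100504180 and cannot be assigned to 1 copy. Reads from near-identical copies may be placed at any of them or dropped, so these positions are uncertain.

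On the EpiSC(AF) side, windows with many regions also held many genes. Windows with 8 each lay on chromosome 7 from 19 Mb (55 genes) and on chromosome 8 from 70 Mb (53 genes). Another with 8, on chromosome 4 from 42 Mb, held copies of Ccl21b, Il11ra2 and Fam205a genes and is uncertain for the reason given. Ssbp4, which encodes a single-stranded DNA binding protein, and Tagln2, an actin-binding transgelin gene, led with 4 regions each. Of all genes, 139 had 2 or more EpiSC(AF)-only regions and 28 had 2 or more ES-only regions.

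MicroRNA genes near the regions were few, and those given were picked after their values were seen. Of 1005 miRNA hairpins in the RefSeq table, 3 were within 2 kb of an ES-only region (0.299%) and 10 of an EpiSC(AF)-only region (0.995%). An EpiSC(AF)-only region, chr11:75172683-75173856, which like 88.3% of its set was in no full-length ES list, covered the hairpins of Mir212 and Mir132. Their 3p arms share a seed, marked in capitals.
mmu-miR-132-3p: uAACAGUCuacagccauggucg
mmu-miR-212-3p: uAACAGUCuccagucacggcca
Another lay 234 bp from Mir9-3, whose 5p product is known from neural tissue, and the second-ranked EpiSC(AF)-only region, in Nfic, lay 191 bp from Mir1191b. On the ES side a region lay 932 bp from Mir191 and 1390 bp from Mir425, and all 3 full-length EpiSC(AF) lists had a lower-ranked peak there. ATAC-seq peaks give no level of any of these miRNAs.

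Libraries that took no part in choosing the regions show where else they were open. The other first-set cells were 2 FS lines, labelled formative stem cells and grown in A3XR (FS1 at passage 21, FS2 at passage 29), and 2 EpiSC lines in AFX (EpiSC_AFX1 at passage 14, EpiSC_AFX2 at passage 16), with 3 libraries each. The labels do not expand A3XR or AFX. At equal length, ES-only regions had a peak in 6.81% ± 1.57 of FS1, 17.1% ± 1.25 of FS2, 7.03% ± 1.49 of EpiSC_AFX1 and 5.38% ± 1.24 of EpiSC_AFX2 (mean of regions per library ± SD, n = 3). FS2 was apart from the other lines, without overlap. EpiSC(AF)-only regions had a peak in 73.7% ± 2.83 of FS1, 51.1% ± 2.56 of FS2, 67.8% ± 3.61 of EpiSC_AFX1 and 81.9% ± 1.83 of EpiSC_AFX2. FS2 was again apart, as the lowest. Regions in all 6 lists had a peak in 83.7% to 95.04% on average over these lines, with FS2 lowest there too. FS2 also had the shortest lists of the 4 lines, with 11796 to 14147 peaks.

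The 6 FS libraries were set against the 6 EpiSC_AFX libraries by an exact two-sided permutation test over 924 assignments, adjusted by Benjamini-Hochberg over the 2 region sets. ES-only regions had a peak in 11.9% and 6.21% on average, a difference of 5.74 points (exact p = 0.0606, adjusted p = 0.0736). EpiSC(AF)-only regions had a peak in 62.4% and 74.9%, a difference of -12.5 points (exact p = 0.0736, adjusted p = 0.0736). Neither passed 0.05. The differences rested on FS2, since without that line they were 0.604 and -1.17 points, and without FS1 they were 10.9 and -23.7 points. Either way 1 FS line then stood for the FS side, so no p is given for these values. Without EpiSC_AFX2 the EpiSC(AF)-only difference was -5.41 points. With the lists and regions at full length the ES-only difference was 0.215 points (12.1% and 11.9%, exact adjusted p = 0.965). Libraries of a line are not independent, so these p-values treat 2 lines a side as 6 samples.

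Region by region, 372 of the 607 ES-only regions (61.3%) were in none of those 12 libraries, and 0 were in all 12. Of the 1026 EpiSC(AF)-only regions, 9 were in none, 165 (16.1%) were in all 12, 401 (39.1%) were in all 6 EpiSC_AFX libraries and 228 (22.2%) were in all 6 FS libraries. At full list length the ES-only overlap rose to 29.5% to 54.0% over the 12 libraries.

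A second set of libraries, named Rd2, allowed shorter peaks. It held 2 ES lists in 2iL at passage 33, whose source label is Rd2GFP. It also held 4 lists of sorted EpiLC induced for 2 days and 2 EpiSC lists in AFX at passage 16. The Rd2 ES lists had 471 and 2576 peaks, and they held 3.62% and 13.0% of the ES-only regions against 0.0975% and 3.899% of the EpiSC(AF)-only regions. The same lists held 2.33% and 12.4% of all union regions, so the ES-only share was close to that of regions at large, while the EpiSC(AF)-only share was below it. The Rd2 EpiSC lists held 18.5% and 18.1% of the ES-only regions and 66.2% and 65.8% of the EpiSC(AF)-only regions, with 42.1% to 43.5% of the union. The EpiLC lists varied in length from 7469 to 26045 peaks, and they held 19.4% to 41.8% of the ES-only and 40.1% to 86.5% of the EpiSC(AF)-only regions. The 208 ES-only regions without a full-length EpiSC(AF) peak were in 2.40% and 1.44% of cases in the Rd2 EpiSC lists, against 26.8% in both lists for the other 399. In the Rd2 ES lists the 208 were in 2.40% and 8.65% of cases, against 4.26% and 15.3% for the 399. The 208 were thus not clearly more frequent in the Rd2 ES lists than union regions at large, with 2.33% and 12.4%. The sets were processed apart and their lists differ in length, so these values stand side by side without a test.

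**Figure D5:**
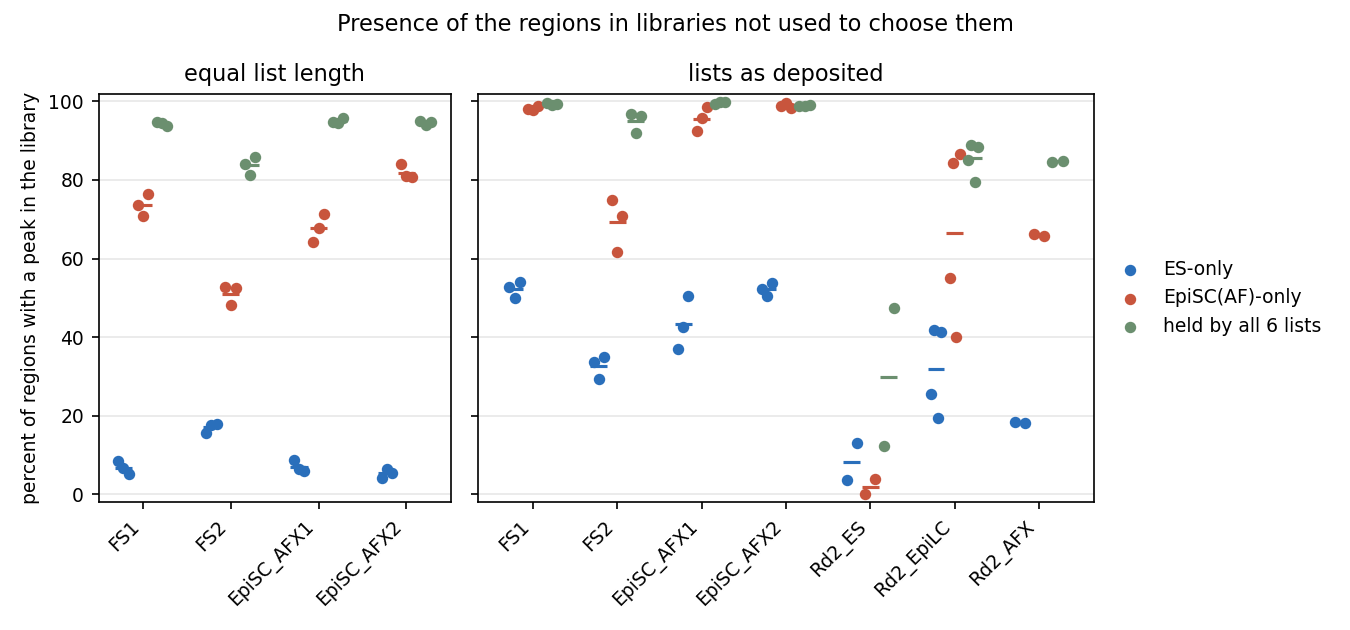
Percent of ES-only, EpiSC(AF)-only and all-6 regions with a peak in each library that did not define them, with 1 point a library and a bar at the group mean, at equal list length (left) and as deposited (right). At equal length ES-only points start at 4.12% and all lie under the EpiSC(AF)-only points, which run from 48.1% to 84.0%.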

How the data were processed

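Peak lists from ATAC-seq libraries were used as deposited (1 per library and none pooled). Per the submitters' processing notes, the tools were Trim Galore, Bowtie, Picard and MACS2 and the build was mm10, with no versions. Per the layout of the deposited lists, a peak carries a score, a fold enrichment (a ratio), a −log10 p and a −log10 q. Read depth is unknown, so no counting floor is given; list length stands in for it.

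From these, the 8044 peaks of highest −log10 p per list were merged where they overlapped, and presence needed 1 shared base. Gene ends came from the RefSeq table of GRCm38.p6 (21900 protein-coding genes), and starts from its promoter table, which covers 17492 of them. All 168 genes of the 16 lists matched; values of 1 counted list gene are not reported here. Named regions were, per side, the 6 of highest mean percentile, the 4 highest with no full-length peak on the other side, regions within 20 kb of list genes, and up to 6 genes with the most regions. Members and lists were chosen with earlier results of these data known. Scripts ran in Python 3.11.15 with numpy 2.4.6, pandas 2.3.3, scipy 1.17.1 and matplotlib 3.10.9, and the counting was tested on simulated lists. The alternatives were list length, ranking by fold, a −log10 q minimum, overlap, merging distance, gene-end distance, leaving out libraries or lines and a replicate block.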

Additional observations from a re-analysis of the deposited data

How the results depend on the processing

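The 2 counts depended on list length. As deposited, 310 regions were ES-only and 4540 were EpiSC(AF)-only. With the top 4000 peaks the counts were 289 and 474, and with a −log10 q of at least 5 they were 17 and 3187, so the ES-only set nearly emptied where few ES peaks qualified. With at least 50% of the region covered, 336 were ES-only. Leaving out 1 library at a time gave 648 to 1043 ES-only and 1265 to 1386 EpiSC(AF)-only regions, with 1022 to 1043 ES-only regions when it was an ES library, since 2 lists then sufficed. The share within 1 kb of a gene end for ES-only regions was 5.16% as deposited, 5.88% at that −log10 q and 29.7% within 5 kb, and 20.4% to 24.0% with 1 library left out. For EpiSC(AF)-only regions it was 44.4% as deposited, 58.0% with the top 4000 peaks, 72.4% at that −log10 q, 57.2% at 50% coverage, 63.2% within 5 kb, and 47.3% to 54.1% with 1 library left out. It stayed above the ES-only share in each of these settings. Ranking by fold enrichment and merging peaks up to 200 bp apart kept both counts within 1.5 times.

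The difference between FS and EpiSC_AFX in ES-only regions went from 0.215 points as deposited (exact adjusted p = 0.965) to 13.2 points with the top 4000 peaks (exact adjusted p = 0.0173). Both p-values treat 2 lines a side as 6 samples, so the smaller one does not show a difference between kinds of line. Leaving out a line sets 1 line against 2, whose libraries are not independent, so only values are given. Without FS1 they were 10.9 points for ES-only and -23.7 for EpiSC(AF)-only regions, and without FS2 0.604 and -1.17. For EpiSC(AF)-only regions they were -19.5 without EpiSC_AFX1 and -5.41 without EpiSC_AFX2. With a replicate block, which permutes within a number over 216 assignments, the differences were again 5.74 and -12.5 points, with exact adjusted p = 0.139 for each. Deviations of same-numbered libraries correlated at -0.0230 to 0.0168 over the 4 lines and at -0.000973 to 0.00736 between ES and EpiSC(AF), so the numbers were not taken to pair libraries. With 1 library left out the differences ranged from 4.09 to 6.64 and from -12.6 to -10.8 points.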

Other observations

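Some genes at separated regions lie outside the lists and were picked after their values were seen. A region at the start of Cdkn2a, the locus of the p16 and p19ARF growth inhibitors, was ES-only at percentiles 87.9, 55.5 and 94.4 in the ES lists. All 3 full-length EpiSC(AF) lists had a lower-ranked peak there. Sox21, a SoxB2 factor gene, was ES-only at its start at 82.7, 59.9 and 41.6, with a lower-ranked peak in 2 full-length EpiSC(AF) lists. On the other side, Notch1 (81.9, 77.2 and 80.6) and Notch3 (59.9, 74.4 and 68.7) had an EpiSC(AF)-only region at the start, and the Notch3 region also appeared in 1 full-length ES list. With Notch4, 3 of 4 Notch receptor genes were near an EpiSC(AF)-only region, against 7.79% of all genes, in a family chosen after its values were seen. Notch4 counted through a region in its span or within 20 kb, and no promoter window of it overlapped one. Of the 426 genes with an EpiSC(AF)-only region at a promoter window, 5 are given as single examples. These are Anxa2, an annexin gene, at 94.96, 90.3 and 88.7, Lama5, a laminin chain gene, at 90.0, 90.0 and 90.5, Itga5, the fibronectin receptor alpha chain gene, at 74.2, 82.2 and 86.6, Tdg, the glycosylase that removes oxidised methylcytosine, at 71.6, 93.9 and 75.2, and Phc1, a Polycomb gene, at 79.7, 89.7 and 89.0. None of the full-length ES lists held these 5 regions, which was also so for 88.3% of all EpiSC(AF)-only regions.

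Of 67 histone genes found by symbol, 14 were near an ES-only region (20.9%, against 2.45% of all genes) and 11 near an EpiSC(AF)-only region (16.4%, against 7.79%). Some regions cover paired genes, as at H2ac12 and H2bc12, and the family was chosen after its values were seen. Of 397 genes named Zfp, 17 were near an ES-only region (4.28%) and 29 near an EpiSC(AF)-only region (7.30%).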
